A study of Mus musculus with 24 samples.

Results

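Tumours of mice given entinostat (ENT) with an antibody to PD-1 (PD1) were compared with tumours of vehicle mice. The comparison took 8 of the 24 samples of the series, chosen by their titles: ENT+PD1 tumours 1, 2, 5 and 6 and vehicle tumours 1, 2, 3 and 5, all run on the first of 2 nCounter cartridges. A further pair of samples, whose titles repeat those of ENT+PD1 tumours 1 and 2, ran on the second cartridge and was left out. All mice were female neu-N mice (strain FVB-Neu-N), 7 to 8 weeks old, which had received 50000 NT2.5 cells, a line from a spontaneous mammary tumour, in the mammary fat pad. Treatment began 3 days later and lasted 3 weeks. ENT+PD1 mice received ENT at 5 mg/kg by daily gavage in 0.5% methylcellulose, and anti-PD-1 at 100 µg per mouse 2 times a week. Vehicle mice received 0.5% methylcellulose and isotype antibodies, per the treatment protocol, while the sample descriptions name PBS with methylcellulose. The descriptions also say that the excised tumours were digested to single cells. Mice given ENT alone, with 4 tumours on the same cartridge, are used below only to show where ENT+PD1 differs from them. Tumours given anti-PD-1 alone were not analysed here, so in the samples used the antibody came on top of ENT. The transplanted tumours come from 1 cultured line, and nothing in the labels ties each tumour to a mouse of its own. The p-values therefore measure the spread between samples, estimated over all the treatment groups fitted below. The protocol also mentions studies with and without anti-HER2, and the titles of these 8 samples do not name it.

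PD-1 is an inhibitory receptor on activated T cells, and antibodies that block it are used to release those cells against tumours. Entinostat inhibits class I histone deacetylases, enzymes that remove acetyl groups from histones, and has been studied for effects on tumour cells and on suppressive myeloid cells. MHC class II molecules present peptides to CD4 T cells on dendritic cells, macrophages and B cells, and their genes share the coactivator encoded by Ciita, which is recruited to promoters through a set of short elements that includes the Y box.

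nCounter counts single RNA molecules with barcoded probes and no amplification. In the deposited values every sample had the same geometric mean over the 20 housekeeping genes, 346.9, and these scaled values are called normalized counts here. Within a sample, values above 1 were whole multiples of 1 step to within 0.05 of a step, and up to 6 low values per sample stood at exactly 1. Dividing by the step gave totals that ran from 321192 to 452745 counts in ENT+PD1 tumours, against 253341 to 460014 counts in vehicle tumours. ENT+PD1 tumours 5 and 6, which stand apart below, had 347381 and 447175 counts, within the range of the other 6 samples. Of 750 endogenous genes, 601 had at least 20 normalized counts in at least 4 of the 24 samples and were tested, and 149 were left out. The labels name whole breast tumour as the source, while the extraction text ends on the isolation of immune cells. All 4 epithelial and tumour markers checked (Epcam, Cdh1, Itgb4 and Erbb2) lay above the negative control probes (mean plus 2 SD) in all 8 samples, as did all 6 macrophage and monocyte markers, 3 neutrophil markers and 3 endothelial markers. The cytotoxic T cell markers Cd8a, Cd8b1, Gzmb and Prf1 did not exceed that limit in any of the 8 samples. T cell markers were partly at the limit: of 5, between 1 and 4 exceeded it in ENT+PD1 tumours and 2 or 3 in vehicle tumours, with summed levels of 57.2 to 321 against 68.9 to 98.2 normalized counts. In whole tumours, more cells of a type and more RNA per cell cannot be told apart.

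The MHC class II genes gave the highest median difference of the 27 gene lists described below, so their promoters are shown. RefSeq promoters (GRCm38.p6), matched by symbol, are printed for 4 of the 9 class II genes tested. H2-Ab1, H2-Dma, H2-Ea-ps, Cd74 and Ciita are only named. Any match on a chromosome that was excluded by hand is not printed, so a gene that is only named may have had a match. Whether such a promoter holds the motif is not given. Each line gives the 120 bases before the annotated start, 5′ to 3′ on the strand of the gene, with the Y box letters TGATTGG, searched on both strands, in capitals. H2-Aa lies at chr17:34287824-34287943 on the minus strand, and H2-Eb1 at chr17:34305747-34305866, H2-DMb2 at chr17:34145129-34145248 and H2-Ob at chr17:34238785-34238904 lie on the plus strand.
H2-Aa: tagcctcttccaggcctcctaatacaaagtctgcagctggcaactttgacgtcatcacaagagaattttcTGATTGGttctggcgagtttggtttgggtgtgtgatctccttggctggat
H2-Eb1: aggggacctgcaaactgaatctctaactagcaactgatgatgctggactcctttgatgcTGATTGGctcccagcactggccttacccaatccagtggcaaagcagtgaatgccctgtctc
H2-DMb2: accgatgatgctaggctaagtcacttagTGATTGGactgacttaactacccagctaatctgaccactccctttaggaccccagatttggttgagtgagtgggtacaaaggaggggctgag
H2-Ob: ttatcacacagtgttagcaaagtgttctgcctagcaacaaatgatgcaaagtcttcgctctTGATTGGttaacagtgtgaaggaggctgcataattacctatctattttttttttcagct
All 4 printed promoters held the motif once, starting 50, 61, 92 and 59 bases before the start of H2-Aa, H2-Eb1, H2-DMb2 and H2-Ob. Since matches were left out by hand, this gives no share for the 9 class II genes. The same window held it in 5.15% of all 32851 promoters of the table, and in 5.43% of the 534 promoters that matched a gene tested. A match is a run of letters and no measured site.

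No gene passed the threshold between ENT+PD1 and vehicle, and most genes had a higher mean with ENT+PD1. Limma was fitted on log2(normalized count + 1) over 22 samples in 6 treatment groups. Besides vehicle, ENT and ENT+PD1 these were ENT+CTLA4, ENT+PD1+CTLA4 and ENT+CTLA4+HER2, on the second cartridge and named by their antibodies. Their tumours share in the estimate of spread behind each p. Limma called 0 of 601 genes (0%) at a Benjamini-Hochberg adjusted p under 0.05, and its lowest adjusted p was 0.460. At an unadjusted p under 0.05 it gave 60 genes (9.98%), 47 higher (7.82%) and 13 lower (2.16%) with ENT+PD1. Fitted on the 8 samples alone, limma gave 40 such genes and a lowest adjusted p of 0.576. The mean was higher at 429 genes (71.4%) and lower at 172 (28.6%), and the median log2 difference of the 601 genes was 0.19. This balance depends on the scaling: with each sample rescaled to the same median, 45.4% of genes were higher and the median was −0.05, and after quantile normalization the values were 44.3% and −0.07. With the repeat-titled pair counted as ENT+PD1 the median was 0.03, with 32 genes at an unadjusted p under 0.05. The count of 60 also depended on single samples, with 15 without ENT+PD1 tumour 6, 25 without tumour 5, 136 without tumour 1, 126 without tumour 2, 30 without vehicle tumour 1 and 36 without vehicle tumour 2. Log2 differences below are ENT+PD1 minus vehicle and are to be read against 0.19, and on the log2(normalized count + 1) scale they understate changes of weak genes. For 80 of the 601 genes, fewer than 3 tumours of 1 of the groups exceeded the negative probes, and their differences are fitted values and no measured folds.

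The 4 ENT+PD1 tumours had unlike profiles. Tumour 5 lay above all 4 vehicle tumours at 341 genes (56.7%) and tumour 6 at 360 genes (59.9%). Tumour 1 did so at 101 genes (16.8%) and tumour 2 at 70 genes (11.6%). Below all vehicle tumours were 139 genes (23.1%) in tumour 1, 119 (19.8%) in tumour 2, 80 (13.3%) in tumour 5 and 81 (13.5%) in tumour 6. Tumours 5 and 6 thus had more genes above than below the vehicle range, and tumours 1 and 2 the reverse by a smaller margin. These counts hold for the housekeeping scaling and were not redone by tumour under the rescalings. In that scaling the median over the genes tested was 120.5 and 140.1 normalized counts in tumours 5 and 6. It was 81.6 and 85.7 in tumours 1 and 2, and 81.3 to 99.9 in vehicle tumours. The genes above the range were shared to a large part between tumours 5 and 6, at 294 genes, 86.2% of those of tumour 5 and 81.7% of those of tumour 6. Tumours 1 and 2 shared 24 such genes, 23.8% of those of tumour 1 and 34.3% of those of tumour 2. All 4 tumours lay above the vehicle range at 10 genes and below it at 6. In tumours given ENT alone, the counts above all vehicle tumours were 30, 33, 83 and 40 genes (4.99%, 5.49%, 13.8% and 6.66%) for tumours 1, 2, 3 and 4, and below them 201, 169, 117 and 228 genes (33.4%, 28.1%, 19.5% and 37.9%).

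**Figure D1:**
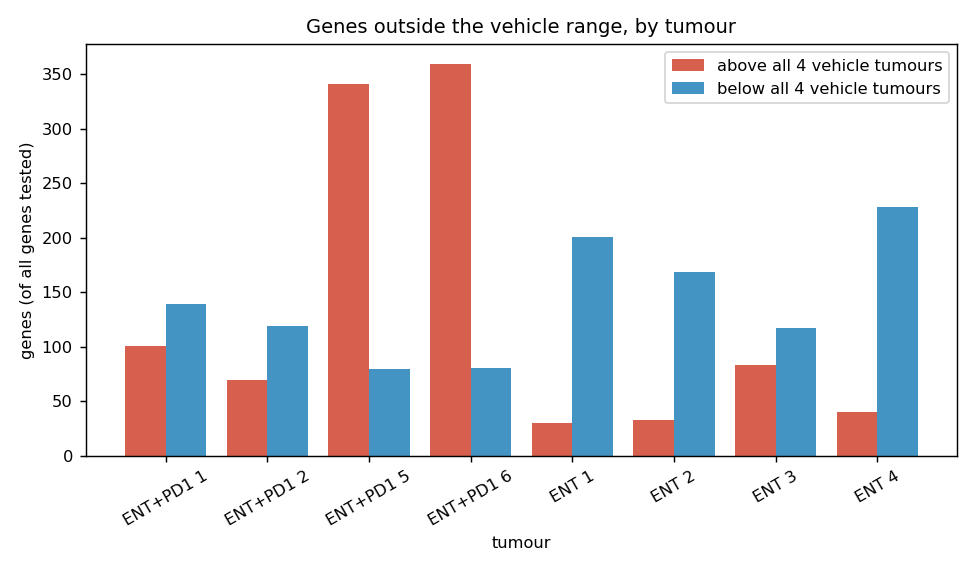
Number of the 601 genes tested that lay above (red) or below (blue) all 4 vehicle tumours, for each ENT+PD1 tumour and each tumour given ENT alone. ENT+PD1 tumours 5 and 6 had 341 and 360 genes above the vehicle range, against 101 and 70 in ENT+PD1 tumours 1 and 2.

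The spread within ENT+PD1 was wider than within vehicle at 458 of 601 genes (76.2%), with a median log2 range of 0.99 among ENT+PD1 tumours and 0.63 among vehicle tumours. Tumour 6 was the highest of its group at 324 genes. The titles write tumours 1 and 2 as (P1) and (P2), and tumours 5 and 6 as plain numbers. What this difference in naming stands for is not given, so it cannot be told apart from the difference in profile, and each value is given by tumour. Values are listed in the order of ENT+PD1 tumours 1, 2, 5 and 6 and vehicle tumours 1, 2, 3 and 5, means are given ± SD with n = 4 per group, and log2 differences ± SE from limma. A list score is the mean over its genes of log2(normalized count + 1) minus the vehicle mean of the gene. Over all 601 genes the scores were −0.03, −0.10, 0.53 and 0.65 in ENT+PD1 tumours, against −0.07, −0.07, 0.08 and 0.06 in vehicle tumours. The list scores below are to be read against these.

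**Figure D2:**
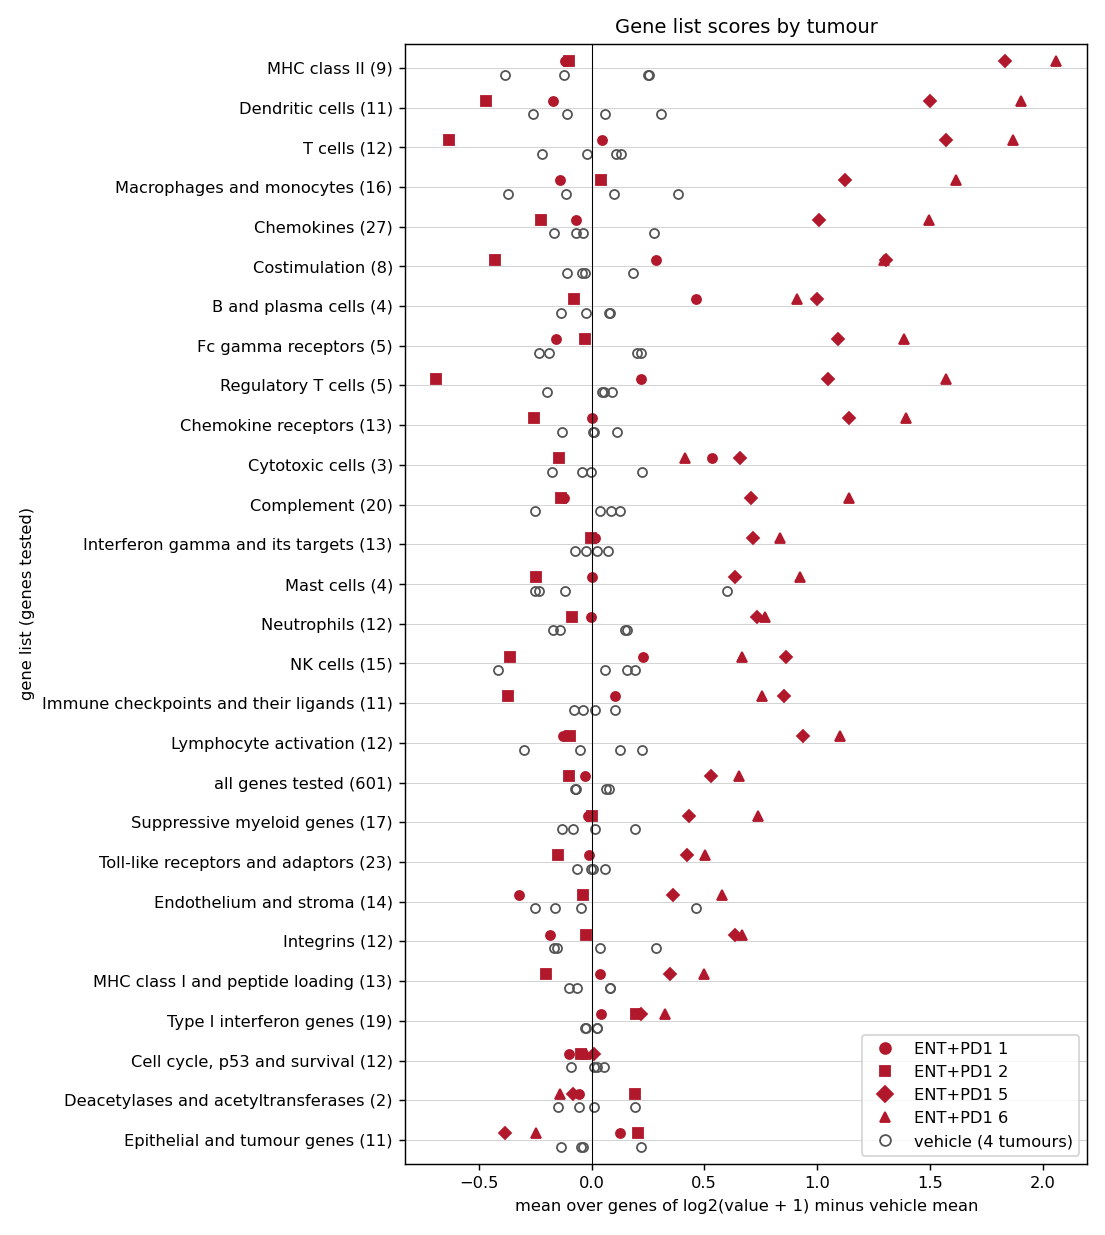
Score of each gene list by tumour, as the mean over its genes of log2(normalized count + 1) minus the vehicle mean, with ENT+PD1 tumours in red (a symbol per tumour) above the 4 vehicle tumours in grey, and lists ordered by median difference. ENT+PD1 tumours 5 and 6 scored 1.84 and 2.06 for MHC class II, where tumours 1 and 2 scored −0.12 and −0.10, and the epithelial list ran the other way, with −0.38 and −0.25 in tumours 5 and 6.

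MHC class II genes had higher means in ENT+PD1 than in vehicle at 9 of the 9 tested, with a median difference of 1.00, and none was called. Their scores were −0.12, −0.10, 1.84 and 2.06 in ENT+PD1 tumours, against −0.39, −0.12, 0.25 and 0.26 in vehicle tumours. The list median was 0.76 after median rescaling (8 of 9 higher), 0.76 after quantile normalization (8), 0.73 with the repeat-titled pair (8), and 0.51 without ENT+PD1 tumour 6. H2-Aa, the alpha chain of the I-A molecule, had 3845, 3498, 18392 and 24989 normalized counts in ENT+PD1 tumours, against 2859, 3264, 4609 and 5142 in vehicle tumours. Tumours 5 and 6 were several times above every vehicle tumour, and tumours 1 and 2 lay inside the vehicle range. The means were 12681 ± 10747 in ENT+PD1 against 3969 ± 1082 in vehicle, a log2 difference of 1.20 ± 0.56 with a 95% interval of 0.03 to 2.37 (limma unadjusted p = 0.0452, adjusted p = 0.460).

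The other class II genes that were strong in all samples also had tumours 5 and 6 on top. H2-Ab1, the partner beta chain, had 1625, 1514, 7988 and 10264 normalized counts in ENT+PD1 tumours and 1240.0, 1454, 2249.6 and 2224 in vehicle tumours. Cd74, the invariant chain that guards the peptide groove, had 3025, 3436, 15858 and 19109 in ENT+PD1 tumours and 2756, 3212, 5366 and 5062 in vehicle tumours. H2-Dma, a chain of the H2-M peptide exchange factor, had 125, 121, 559 and 757 in ENT+PD1 tumours and 95.5, 128, 221 and 196 in vehicle tumours. In all 3, tumours 5 and 6 lay above every vehicle tumour and tumours 1 and 2 within their range. The log2 differences were 1.12 ± 0.54, 0.93 ± 0.51 and 0.89 ± 0.50 (limma adjusted p = 0.460, 0.480 and 0.498).

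The weaker class II genes followed with 1 exception. H2-DMb2, the other chain of H2-M, had 27.6, 28.6, 145 and 176 normalized counts in ENT+PD1 tumours, against 22.1, 19.97, 34.4 and 35.4 in vehicle tumours. H2-Eb1, the beta chain of I-E, had 18.4, 18.8, 67.9 and 60.2 in ENT+PD1 tumours, against 11.1, 19.97, 35.3 and 21.7 in vehicle tumours. H2-Ea-ps, the I-E alpha locus, listed under a pseudogene symbol, had 71.2, 80.01, 377 and 558 in ENT+PD1 tumours, against 71.97, 69.9, 102 and 130.2 in vehicle tumours. The highest of all 8 were again tumours 5 and 6. Ciita, the class II coactivator, had 10.3, 13.9, 33.9 and 51.9 normalized counts in ENT+PD1 tumours and 9.69, 17.1, 10.1 and 7.99 in vehicle tumours, and exceeded the negative probes only in tumours 5 and 6. H2-Ob, the beta chain of H2-O, an inhibitor of H2-M, had 59.7, 45.7, 73.7 and 43.6 in ENT+PD1 tumours and 59.5, 57.1, 35.3 and 60.5 in vehicle tumours, so the groups overlapped throughout. Its log2 difference of 0.07 ± 0.30 turned negative under both rescalings. H2-DMb2, H2-Ea-ps and H2-Ob were chosen after their values were seen.

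**Figure D3:**
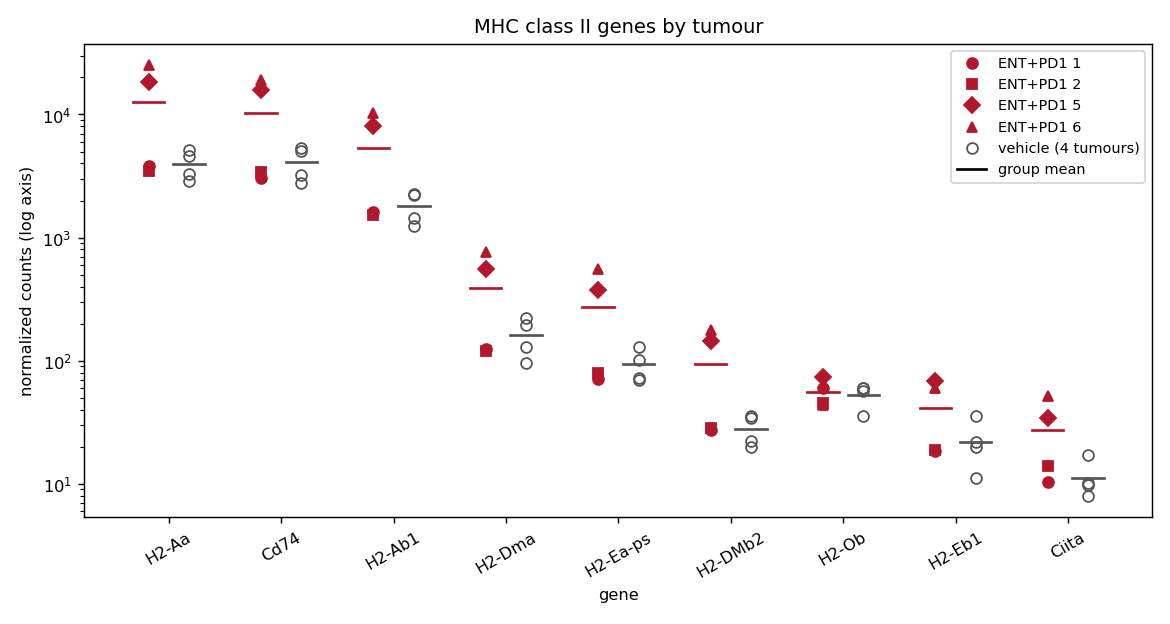
Normalized counts (log axis) of the 9 MHC class II genes tested in each ENT+PD1 tumour (red, left) and each vehicle tumour (grey, right), with group means as short lines. At 8 genes ENT+PD1 tumours 5 and 6 lie above all vehicle tumours while tumours 1 and 2 do not, and H2-Ob shows no such gap.

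MHC class I and interferon lists had lower medians than the class II list. Of 13 class I and peptide loading genes, 9 had higher and 4 lower means in ENT+PD1, with a median of 0.13. That median was −0.12 after median rescaling (4 of 13 higher), −0.15 after quantile normalization (5), −0.01 with the repeat-titled pair (6), and 0.23, 0.03 and 0.21 without ENT+PD1 tumour 2, ENT+PD1 tumour 6 and vehicle tumour 3. H2-D1, a class I heavy chain, had 3631, 3426, 5469 and 7281 normalized counts in ENT+PD1 tumours, against 3607, 3426, 4265 and 4121 in vehicle tumours. H2-K1, the other classical heavy chain tested, had 1165, 1240.2, 1507 and 1916 in ENT+PD1 tumours, against 1067, 970.2, 1601 and 1005 in vehicle tumours. For H2-D1, tumours 5 and 6 were above all vehicle tumours, and for H2-K1 only tumour 6 was. Psmb8, an immunoproteasome subunit, averaged 702 ± 234 in ENT+PD1 against 579 ± 58.6 in vehicle, with a difference that turned negative under median rescaling. Psmb10, the immunoproteasome subunit with the lowest p of the list, had 51.7, 59.6, 77.2 and 77.8 normalized counts in ENT+PD1 tumours and 34.6, 38.5, 49.5 and 52.5 in vehicle tumours, and only tumour 1 fell within the vehicle range (0.59 ± 0.20, limma unadjusted p = 0.00841, adjusted p = 0.460).

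Interferon gamma and its targets had higher means at 12 of 13 genes, with a median of 0.33. It was 0.09 after median rescaling (8 of 13 higher), 0.05 after quantile normalization (8), 0.13 with the repeat-titled pair (11), and 0.14 without ENT+PD1 tumour 6. Type I interferon genes had higher means at 14 of 19, with a median of 0.12 that was −0.12 after median rescaling (5 of 19 higher), −0.11 after quantile normalization (4), 0.01 with the repeat-titled pair (10), and 0.07 without ENT+PD1 tumour 6. None of these genes was called. Ifng, the cytokine itself, was weak in all samples, with 18.4, 12.2, 26.9 and 20.8 normalized counts in ENT+PD1 tumours and 26.3, 11.4, 5.04 and 9.13 in vehicle tumours, and exceeded the negative probes in 2 and 1 of 4. Cxcl10, an interferon-induced chemokine for CXCR3, had 21.8, 41.6, 46.8 and 73.7 in ENT+PD1 tumours and 30.4, 19.97, 19.3 and 20.6 in vehicle tumours. Tumour 1 alone was below the highest vehicle tumour. Cxcl9, another CXCR3 ligand, had 10.3, 8.98, 24.6 and 36.3 in ENT+PD1 tumours and 26.3, 17.1, 20.1 and 13.7 in vehicle tumours, with tumours 1 and 2 below every vehicle tumour and tumour 6 above them. Its means were 20.1 ± 12.9 in ENT+PD1 against 19.3 ± 5.35 in vehicle, and its log2 difference, negative at these low levels, turned positive without vehicle tumour 1 (0.0270) or without ENT+PD1 tumour 1 (0.0983) or 2 (0.16). Ifitm2, an interferon-induced membrane protein, averaged 2251 ± 315 in ENT+PD1 against 2144 ± 184 in vehicle, with a difference that turned negative under both rescalings.

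T cell genes had higher means in ENT+PD1 at 12 of 12 tested, with a median of 0.71 and none called. The panel held 15 genes of this list, and 4 of the 12 tested also passed the filter when it was applied to the 8 samples alone. The scores were 0.05, −0.63, 1.57 and 1.87 in ENT+PD1 tumours, against 0.13, −0.22, −0.02 and 0.11 in vehicle tumours, so tumour 2 was the lowest of all 8. Cd3g, a chain of the T cell receptor complex, had 14.9, 12.2, 97.1 and 126 normalized counts in ENT+PD1 tumours, against 12.5, 18.6, 10.1 and 21.7 in vehicle tumours. Cd3d, another CD3 chain, had 40.2, 27.8, 67.9 and 84.1 in ENT+PD1 tumours, against 37.4, 28.5, 25.2 and 35.4 in vehicle tumours. Cd4, the coreceptor of helper T cells, had 8.04, 8.16, 32.8 and 52.9 in ENT+PD1 tumours, against 8.30, 7.13, 11.8 and 12.6 in vehicle tumours. At all 3 genes tumours 5 and 6 were above every vehicle tumour and tumours 1 and 2 were not. Cd3g and Cd4 exceeded the negative probes in 2 of 4 ENT+PD1 tumours and 1 of 4 vehicle tumours, so the size of their differences is not measured. Cd3d, above the probes in all 8, had a log2 difference of 0.67 ± 0.71 (limma adjusted p = 0.643). The list median was 0.47 after median rescaling (10 of 12 higher), 0.31 after quantile normalization (10), 0.39 with the repeat-titled pair (9), and 0.41 without ENT+PD1 tumour 6.

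Costimulatory and regulatory receptors of T cells had some of the widest spreads among the ENT+PD1 tumours. Icos, a costimulatory receptor of activated T cells, had 21.8, 8.16, 149.8 and 202 normalized counts in ENT+PD1 tumours, against 23.5, 12.8, 28.6 and 17.1 in vehicle tumours. Ctla4, an inhibitory receptor of activated and regulatory T cells, had 40.2, 11.4, 151 and 187 in ENT+PD1 tumours, against 34.6, 39.95, 47.02 and 26.3 in vehicle tumours. Il2ra, the high affinity chain of the interleukin 2 receptor, had 33.3, 9.80, 146 and 200.3 in ENT+PD1 tumours, against 24.9, 25.7, 39.5 and 15.99 in vehicle tumours. At each, tumour 2 was the lowest and tumour 6 the highest of all 8 samples. The 3 values of tumour 2 lay below its negative probe limit of 15.7 normalized counts, so the full spread is not measured. The log2 differences had intervals that spanned 0, with −0.82 to 2.28 for Ctla4 and −0.54 to 2.81 for Il2ra. Icos exceeded the negative probes in 3 of 4 ENT+PD1 tumours and 2 of 4 vehicle tumours. Foxp3, the factor of regulatory T cells, was left out of the test as too weak, with 6.89, 8.16, 22.2 and 41.5 normalized counts in ENT+PD1 tumours and 11.1, 1.43, 12.6 and 7.99 in vehicle tumours, and exceeded the negative probes in 1 of 4 in each group. Of 5 regulatory T cell genes tested, 5 had higher means, with a median of 0.47 that was 0.23 after median rescaling (3 of 5 higher), 0.08 after quantile normalization (3), 0.21 with the repeat-titled pair (4), and 0.30 and 0.17 without ENT+PD1 tumour 5 and ENT+PD1 tumour 6. Of 8 costimulation genes 8 had higher means, with a median of 0.57 that was 0.33 after median rescaling (7 of 8 higher), 0.36 after quantile normalization (7), 0.31 with the repeat-titled pair (7), and 0.37 and 0.38 without ENT+PD1 tumour 5 and ENT+PD1 tumour 6.

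Among checkpoint genes, 10 of 11 had higher means in ENT+PD1, with a median of 0.25. This value was 0.01 after median rescaling (6 of 11 higher), −0.08 after quantile normalization (5), 0.01 with the repeat-titled pair (7), and 0.39, 0.38, 0.06 and 0.11 without ENT+PD1 tumour 1, ENT+PD1 tumour 2, ENT+PD1 tumour 5 and ENT+PD1 tumour 6. Pdcd1, the gene of the receptor that the antibody blocks, was below the filter, with 12.6, 4.08, 60.9 and 69.5 normalized counts in ENT+PD1 tumours, against 11.1, 5.71, 10.1 and 9.13 in vehicle tumours. It exceeded the negative probes in tumours 5 and 6 only. Cd274, which encodes the ligand PD-L1, had 43.7, 48.2, 146 and 185 in ENT+PD1 tumours, against 24.9, 41.4, 80.6 and 59.4 in vehicle tumours (0.87 ± 0.43, limma adjusted p = 0.460). Pdcd1lg2, which encodes PD-L2, had 17.2, 8.98, 60.9 and 50.9 in ENT+PD1 tumours, against 27.7, 19.97, 21.8 and 12.6 in vehicle tumours. The highest level of each was in tumour 5 or 6. Tigit, an inhibitory receptor of T and NK cells, had 50.5, 16.3, 50.3 and 39.4 in ENT+PD1 tumours and 33.2, 25.7, 23.5 and 17.1 in vehicle tumours, where tumour 1 was as high as tumour 5. Tigit was chosen after its values were seen.

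Cd69, an early activation antigen of lymphocytes, had the lowest p of all 601 genes. It had 55.1, 85.7, 163 and 179.5 normalized counts in ENT+PD1 tumours, against 27.7, 28.5, 46.2 and 78.8 in vehicle tumours. The means were 121 ± 59.8 in ENT+PD1 against 45.3 ± 23.9 in vehicle, and only tumour 1 was below the highest vehicle tumour. The log2 difference was 1.37 ± 0.39 (limma unadjusted p = 0.00251, adjusted p = 0.460). Batf, a transcription factor of activated lymphocytes, had 31.02, 25.3, 63.2 and 62.3 in ENT+PD1 tumours, against 24.9, 24.2, 23.5 and 27.4 in vehicle tumours, with only tumour 2 inside the narrow vehicle range. Of 12 lymphocyte activation genes, 10 had higher means, with a median of 0.21 that was −0.03 after median rescaling (5 of 12 higher), −0.05 after quantile normalization (5), 0.17 with the repeat-titled pair (11), and 0.38 without ENT+PD1 tumour 1.

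NK cell genes had higher means at 13 of 15, with a median of 0.26. It was 0.02 after median rescaling (8 of 15 higher), −0.13 after quantile normalization (7), −0.09 with the repeat-titled pair (6), and 0.49, 0.10 and 0.04 without ENT+PD1 tumour 2, ENT+PD1 tumour 5 and vehicle tumour 3. Several of these are Ly49 family probes, whose targets are closely related, so the 15 may not be separate measurements. Klrk1, which encodes the activating receptor NKG2D, had 20.7, 13.9, 37.5 and 32.2 normalized counts in ENT+PD1 tumours, against 15.2, 12.8, 10.1 and 10.3 in vehicle tumours. It exceeded the negative probes in 3 of 4 ENT+PD1 tumours and in 0 of 4 vehicle tumours, so the size of the difference is not measured (limma unadjusted p = 0.00825, adjusted p = 0.460). Il2rb, the shared beta chain of the interleukin 2 and 15 receptors, had 35.6, 22.04, 115 and 174 in ENT+PD1 tumours and 30.4, 18.6, 40.3 and 31.97 in vehicle tumours. Klrc1, which encodes the inhibitory receptor NKG2A, had 26.4, 13.9, 51.5 and 36.3 in ENT+PD1 tumours and 17.99, 27.1, 10.1 and 20.6 in vehicle tumours. Ncr1, the NK cell receptor NKp46, went the other way in its mean, with 12.6, 11.4, 11.7 and 20.8 in ENT+PD1 tumours and 23.5, 17.1, 10.1 and 23.98 in vehicle tumours, and exceeded the negative probes in 1 and 2 of 4. Of 13 cytotoxic genes on the table only Gzma, Klrd1 and Ctsw passed the filter. Of these 3, 2 had higher means and Ctsw a lower one (−0.12), with a median of 0.37. That median was 0.12 after median rescaling (2 of 3 higher), 0.03 after quantile normalization (2) and −0.03 with the repeat-titled pair (1). It ran from 0.19 to 0.65 without single tumours. Gzma, a granzyme, averaged 33.8 ± 12.7 in ENT+PD1 against 25.2 ± 7.94 in vehicle, and Klrd1, which encodes CD94, 20.2 ± 7.83 in ENT+PD1 against 10.6 ± 3.58 in vehicle. The vehicle mean of Klrd1 was below the negative probe limits of the vehicle tumours (10.8 to 23.9), so the size of its difference is not measured.

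Macrophage and monocyte genes had higher means in ENT+PD1 at 16 of 16, with a median of 0.66 and none called. That median was 0.41 after median rescaling (16 of 16 higher), 0.45 after quantile normalization (16), 0.30 with the repeat-titled pair (16), and 0.34 without ENT+PD1 tumour 6. The scores were −0.14, 0.04, 1.12 and 1.62 in ENT+PD1 tumours, against −0.37, −0.11, 0.38 and 0.10 in vehicle tumours. Lyz2, the lysozyme of macrophages and neutrophils, had 5479, 4561, 10229.6 and 16722 normalized counts in ENT+PD1 tumours, against 3162, 3424, 5944 and 3866 in vehicle tumours (1.03 ± 0.41, limma unadjusted p = 0.0225, adjusted p = 0.460). C1qa, a chain of complement C1q that macrophages make, had 1044, 1287, 2736 and 3349 in ENT+PD1 tumours, against 963, 1311, 1522 and 1507 in vehicle tumours. C1qb, another C1q chain, had 1056, 1256, 2797 and 3319 in ENT+PD1 tumours, against 926, 1151, 1356 and 1393 in vehicle tumours. At these 3 genes tumours 5 and 6 were above every vehicle tumour and tumours 1 and 2 were not. Cd14, a coreceptor for lipopolysaccharide, averaged 1813 ± 646 in ENT+PD1 against 1449.7 ± 365 in vehicle, Itgam, the integrin chain CD11b, 142 ± 87.8 in ENT+PD1 against 74.6 ± 30.8 in vehicle, and Cybb, the phagocyte oxidase subunit, 462 ± 283 in ENT+PD1 against 250.2 ± 58.5 in vehicle.

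Fc gamma receptor genes, which bind antibody on phagocytes, had higher means at 5 of 5, with a median of 0.51 that was 0.26 after median rescaling (5 of 5 higher), 0.22 after quantile normalization (5), 0.30 with the repeat-titled pair (5), and 0.77 and 0.27 without ENT+PD1 tumour 1 and ENT+PD1 tumour 6. Fcgr2b, the inhibitory receptor, had 988, 841, 3044 and 4186 normalized counts in ENT+PD1 tumours, against 750.1, 795, 1329 and 1011 in vehicle tumours. Fcgr3, an activating receptor, had 117, 131, 349.9 and 445 in ENT+PD1 tumours, against 133, 116, 178 and 159.8 in vehicle tumours. Fcgr1, the high affinity receptor, had 80.4, 93.1, 169.7 and 229 in ENT+PD1 tumours, against 94.1, 113, 97.4 and 104 in vehicle tumours. Tumours 5 and 6 were the highest of the 8 at all 3, and at Fcgr1 tumours 1 and 2 were below every vehicle tumour. Fcer1g, the signalling chain these receptors share, averaged 432 ± 169.5 in ENT+PD1 against 306 ± 94.4 in vehicle. Complement genes had higher means at 17 of 20, with a median of 0.35 that was 0.11 after median rescaling (16 of 20 higher), 0.08 after quantile normalization (14), −0.04 with the repeat-titled pair (9), and 0.55, 0.56 and 0.10 without ENT+PD1 tumour 1, ENT+PD1 tumour 2 and ENT+PD1 tumour 6. C3, the central component, averaged 775 ± 527 in ENT+PD1 against 496 ± 155 in vehicle. Ctss, cathepsin S, which trims the invariant chain of class II, had 1589, 1669, 4067 and 4523 normalized counts in ENT+PD1 tumours and 1104, 1444, 1766 and 1808 in vehicle tumours (0.81 ± 0.29, limma unadjusted p = 0.0121, adjusted p = 0.460). There too all vehicle tumours lay below tumours 5 and 6. Tlr2, a Toll-like receptor for bacterial lipoproteins, averaged 204 ± 70.2 in ENT+PD1 against 144 ± 34.2 in vehicle. Its list had 17 of 23 higher and a median of 0.15 that was −0.09 after median rescaling (7 of 23 higher), −0.14 after quantile normalization (6), 0.07 with the repeat-titled pair (14), and 0.27, 0.07 and 0.08 without ENT+PD1 tumour 2, ENT+PD1 tumour 5 and ENT+PD1 tumour 6.

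Dendritic cell genes had higher means at 11 of 11, with a median of 0.76. This median was 0.52 after median rescaling (10 of 11 higher), 0.46 after quantile normalization (10), 0.36 with the repeat-titled pair (10), and 0.46 and 0.25 without ENT+PD1 tumour 5 and ENT+PD1 tumour 6. Scores were −0.17, −0.47, 1.5 and 1.90 in ENT+PD1 tumours, against −0.26, −0.11, 0.31 and 0.06 in vehicle tumours, so tumour 2 was again the lowest of the 8. Ccr7, the receptor that guides mature dendritic cells and naive T cells to lymph nodes, had 49.4, 28.6, 133 and 198 normalized counts in ENT+PD1 tumours, against 37.4, 28.5, 58.8 and 46.8 in vehicle tumours. Cd80, a ligand for CD28 and CTLA-4, had 42.5, 31.02, 173 and 211 in ENT+PD1 tumours, against 27.7, 38.5, 76.4 and 61.7 in vehicle tumours. Cd86, its relative, had 100.0, 93.1, 272 and 247 in ENT+PD1 tumours, against 74.7, 108, 134 and 149.6 in vehicle tumours. At these 3 genes tumours 5 and 6 exceeded all vehicle tumours. Cd83, a maturation antigen, averaged 1153 ± 661 in ENT+PD1 against 716 ± 210.2 in vehicle and Cd40, the receptor for CD40 ligand, 71.4 ± 42.7 in ENT+PD1 against 36.5 ± 11.3 in vehicle.

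Chemokines had higher means at 23 of 27, with a median of 0.59, and included the largest gaps between ENT+PD1 tumours. The median was 0.35 after median rescaling (20 of 27 higher), 0.32 after quantile normalization (20), 0.17 with the repeat-titled pair (17), and 0.39 and 0.28 without ENT+PD1 tumour 5 and ENT+PD1 tumour 6. Ccl24, an eotaxin, had 17.2, 8.98, 213 and 475 normalized counts in ENT+PD1 tumours, against 19.4, 24.2, 56.3 and 19.4 in vehicle tumours. Ccl17, a ligand of CCR4 made by dendritic cells, had 20.7, 10.6, 241 and 489 in ENT+PD1 tumours, against 24.9, 31.4, 65.5 and 20.6 in vehicle tumours. Ccl22, the other CCR4 ligand, had 14.9, 13.1, 95.96 and 178 in ENT+PD1 tumours, against 22.1, 18.6, 38.6 and 25.1 in vehicle tumours. At all 3, tumours 1 and 2 were near or below the lowest vehicle tumours and tumours 5 and 6 well above the highest. The 10 genes with the widest log2 range among ENT+PD1 tumours were Ccl24, Ccl17, Icos, CD209e, Il2ra, Serpinb2, Ctla4, Ccl22, Cd6 and Cd5. Their ranges were 3.32 to 5.58 in ENT+PD1 and 0.47 to 1.63 in vehicle, and at all 10 tumour 6 was the highest and tumour 2 the lowest ENT+PD1 tumour. The tumour 2 values of Ccl24, Ccl17, Ccl22, Icos, Il2ra and Ctla4 lay below its negative probe limit of 15.7 normalized counts. The size of their ranges is therefore not measured. ENT+PD1 tumour 1 also lay below its limit of 18.9 at Ccl24 and Ccl22. Vehicle tumour 5 lay below its limit of 23.9 at Ccl24 and Ccl17. The order of these low values among each other is not measured. Ccl8, a monocyte chemoattractant, averaged 1557 ± 1629.7 in ENT+PD1 against 599 ± 117 in vehicle, and ENT+PD1 tumour 6 alone had 3944. Ccl9, a ligand of CCR1, averaged 1393 ± 1219.6 in ENT+PD1 against 433 ± 166 in vehicle. Cxcl16, a transmembrane ligand of CXCR6, had 646, 603, 926 and 924 in ENT+PD1 tumours and 472, 595, 539.9 and 652 in vehicle tumours (0.44 ± 0.15, limma unadjusted p = 0.0105, adjusted p = 0.460).

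Of 13 chemokine receptors, 12 had higher means, with a median of 0.42 that was 0.17 after median rescaling (10 of 13 higher), 0.28 after quantile normalization (9), 0.24 with the repeat-titled pair (10), and 0.75, 0.68, 0.25 and 0.19 without ENT+PD1 tumour 1, ENT+PD1 tumour 2, ENT+PD1 tumour 5 and ENT+PD1 tumour 6. Ccr2, the receptor that draws inflammatory monocytes, had 48.3, 50.6, 142 and 299.9 normalized counts in ENT+PD1 tumours, against 27.7, 37.1, 41.99 and 39.96 in vehicle tumours. All 4 ENT+PD1 tumours were above all vehicle tumours, tumours 1 and 2 by a small margin. The log2 difference was 1.46 ± 0.54 with an interval of 0.32 to 2.59 (limma unadjusted p = 0.0149, adjusted p = 0.460). Ccr1, a myeloid receptor, averaged 138 ± 80.6 in ENT+PD1 against 88.6 ± 19.5 in vehicle.

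Of 17 suppressive myeloid genes 14 had higher means, the arginases among them, with a median of 0.18 that was −0.06 after median rescaling (8 of 17 higher), 0.01 after quantile normalization (9), 0.02 with the repeat-titled pair (11), and 0.36 and 0.03 without ENT+PD1 tumour 1 and ENT+PD1 tumour 6. Arg1, the arginase of suppressive macrophages and granulocytes, had 311, 165, 600.4 and 862 normalized counts in ENT+PD1 tumours, against 162, 151, 287 and 166 in vehicle tumours (1.12 ± 0.41, limma unadjusted p = 0.0126, adjusted p = 0.460). Tumours 1, 5 and 6 exceeded all vehicle tumours, and tumour 2 lay among them. Arg2, the mitochondrial arginase, had 60.9, 50.6, 117 and 103 in ENT+PD1 tumours, against 34.6, 35.7, 52.1 and 31.97 in vehicle tumours (1.02 ± 0.32, limma unadjusted p = 0.00488, adjusted p = 0.460). Tumour 2 alone was below the highest vehicle tumour. Nos2, the inducible nitric oxide synthase, averaged 32.6 ± 6.83 in ENT+PD1 against 36.9 ± 7.22 in vehicle, Stat3, a signal transducer of interleukins 6 and 10, 1433 ± 101 in ENT+PD1 against 1559 ± 93.6 in vehicle, and Il1b, an inflammatory cytokine, 2657 ± 1206 in ENT+PD1 against 2033 ± 413 in vehicle.

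Neutrophil genes had higher means at 10 of 12, with a median of 0.29. Their median was 0.05 after median rescaling (7 of 12 higher), 0.00 after quantile normalization (6), 0.18 with the repeat-titled pair (9), and 0.11 and 0.19 without ENT+PD1 tumour 5 and ENT+PD1 tumour 6. S100a8, a granulocyte alarmin, had 565, 523, 903 and 671 normalized counts in ENT+PD1 tumours, against 422, 586, 575 and 514 in vehicle tumours. Cxcl2, a chemokine for neutrophils, had 373, 579, 1086 and 1238 in ENT+PD1 tumours, against 328, 277, 585 and 569 in vehicle tumours. At both genes, every vehicle tumour lay below tumours 5 and 6. Cxcl1, of the same family, averaged 2525 ± 435 in ENT+PD1 against 1957 ± 243 in vehicle, and Itgb2, the leukocyte integrin chain CD18, 228 ± 159 in ENT+PD1 against 108 ± 52.95 in vehicle. B and plasma cell genes were mostly below the filter, and the 4 tested had higher means, with a median of 0.55 that was 0.30 after median rescaling (4 of 4 higher), 0.23 after quantile normalization (4), 0.33 with the repeat-titled pair (4), and 0.85 and 0.36 without ENT+PD1 tumour 2 and ENT+PD1 tumour 5. Ms4a1, which encodes CD20, had 44.8, 18.8, 45.6 and 29.1 in ENT+PD1 tumours and 20.8, 19.97, 11.8 and 19.4 in vehicle tumours, so tumours 1, 5 and 6 were above the vehicle range and tumour 2 was not. Of 4 mast cell genes 3 had higher means and the median of 0.32 was 0.07 after median rescaling (2 of 4 higher), −0.01 after quantile normalization (2), 0.11 with the repeat-titled pair (2), and 0.53, 0.15 and 0.16 without ENT+PD1 tumour 2, ENT+PD1 tumour 5 and ENT+PD1 tumour 6. The mast cell scores were 0.00, −0.25, 0.64 and 0.93 in ENT+PD1 tumours, against −0.25, −0.12, −0.23 and 0.60 in vehicle tumours.

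Epithelial and tumour genes were the list with the lowest median, −0.20, with 3 of 11 higher and 8 lower in ENT+PD1. It was −0.44 after median rescaling (1 of 11 higher), −0.22 after quantile normalization (3), −0.07 with the repeat-titled pair (3), and −0.13 without ENT+PD1 tumour 6. The scores were 0.13, 0.21, −0.38 and −0.25 in ENT+PD1 tumours, against 0.22, −0.05, −0.13 and −0.04 in vehicle tumours, so tumours 5 and 6 were the lowest of the 8. Spp1, osteopontin, had 51650.3, 47225, 29603 and 26011 normalized counts in ENT+PD1 tumours, against 58579, 50176, 42279 and 48643 in vehicle tumours. Lcn2, lipocalin 2, had 40209, 40556, 27611 and 25032 in ENT+PD1 tumours, against 40322, 37325, 32617 and 38412 in vehicle tumours. Epcam, an epithelial adhesion molecule, had 5721, 5967, 4151 and 3778 in ENT+PD1 tumours, against 6708, 6203, 5192 and 6124 in vehicle tumours. At all 3, every vehicle tumour lay above tumours 5 and 6. Epcam had a log2 difference of −0.33 ± 0.16 (limma unadjusted p = 0.0492, adjusted p = 0.460). Cd9, a tetraspanin, averaged 4548 ± 763 in ENT+PD1 against 5265 ± 724 in vehicle, and Erbb2, the mouse homologue of the neu oncogene, 417 ± 62.4 in ENT+PD1 against 476 ± 40.3 in vehicle. Erbb2 was chosen after its values were seen. The summed level of the 4 epithelial markers was 5921 to 9283 in ENT+PD1 tumours, against 8672 to 10064 in vehicle tumours, and that of the 6 macrophage and monocyte markers 2322 to 6734, against 2032 to 3768. The part of this shift in the immune lists was not tested.

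Endothelial and stromal genes overlapped between the groups, with 9 of 14 higher and a median of 0.15. It was −0.09 after median rescaling (6 of 14 higher), −0.06 after quantile normalization (6), −0.12 with the repeat-titled pair (3), and 0.35, 0.04, 0.00, 0.01 and 0.34 without ENT+PD1 tumour 1, ENT+PD1 tumour 5, ENT+PD1 tumour 6, vehicle tumour 2 and vehicle tumour 3. Col3a1, a fibrillar collagen, had 4757, 7244, 7456 and 16609.8 normalized counts in ENT+PD1 tumours, against 5488, 6044, 8399 and 5304 in vehicle tumours. Tumour 6 alone was outside the vehicle range on the high side. Pecam1, the endothelial antigen CD31, averaged 519.9 ± 172 in ENT+PD1 against 457 ± 128 in vehicle and turned negative under both rescalings. Of 12 integrin genes 8 had higher means, with a median of 0.14 that was −0.10 after median rescaling (5 of 12 higher), −0.12 after quantile normalization (5), −0.06 with the repeat-titled pair (5), and 0.24, 0.28, 0.08, 0.05, 0.03 and 0.25 without ENT+PD1 tumour 1, ENT+PD1 tumour 2, ENT+PD1 tumour 5, ENT+PD1 tumour 6, vehicle tumour 2 and vehicle tumour 3. Cell cycle and survival genes were centred on 0, with 5 of 12 higher and a median of 0.00 (−0.25 under median rescaling). Cdkn1a, a cell cycle inhibitor that p53 induces, averaged 765 ± 180.1 in ENT+PD1 against 628 ± 119.5 in vehicle. Of the acetyltransferases Crebbp and Ep300, the only members of their list tested, 1 had a higher mean (median −0.02). Hdac3, a class I deacetylase inhibited by ENT, is a housekeeping gene of the panel and so part of the scaling, and was not tested. The level was 492, 434, 404 and 345 normalized counts in ENT+PD1 tumours, against 489.9, 468, 406 and 467 in vehicle tumours.

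The groups did not overlap at 16 of 601 genes (2.66%), 10 higher (1.66%) and 6 lower (0.998%) in ENT+PD1, and none of them was called. Whether this count exceeds what chance gives was not tested, and the genes are listed as description. Under median rescaling there were 21 such genes (8 higher and 13 lower) and under quantile normalization 23 (8 higher and 15 lower), and with the repeat-titled pair counted as ENT+PD1 there were 6. The higher genes were Ccr2, Cd1d1, Cd38, Ifit3, Il10, Lag3, Pou2af1, Pvrl2, Rora and Txnip, and the lower genes App, F2rl1, Itgb3, Itgb4, Ncam1 and Trp53. Lag3, an inhibitory receptor of T cells that binds class II, had 65.5, 71.8, 144 and 125 normalized counts in ENT+PD1 tumours, against 49.8, 61.4, 60.5 and 63.9 in vehicle tumours (0.70 ± 0.26, limma unadjusted p = 0.0144, adjusted p = 0.460). Ifit3, an interferon-induced gene, had 18.4, 35.1, 23.4 and 19.7 in ENT+PD1 tumours, against 9.69, 11.4, 8.40 and 15.99 in vehicle tumours. Il10, an immunosuppressive cytokine, had 24.1, 20.4, 23.4 and 23.9 in ENT+PD1 tumours, against 17.99, 12.8, 13.4 and 19.4 in vehicle tumours. Lag3 was higher in tumours 5 and 6 than in 1 and 2, while Il10 had nearly the same level in all 4, and Ifit3 was highest in tumour 2. Ifit3 exceeded the negative probes only in ENT+PD1 tumours 2 and 6 and in no vehicle tumour. Il10 did not exceed them in ENT+PD1 tumour 5 or in vehicle tumours 2 and 5. The size of these differences is not measured.

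Several of these genes had a similar level in all 4 ENT+PD1 tumours. Txnip, an inhibitor of thioredoxin, had 776, 680.1, 702 and 702 normalized counts in ENT+PD1 tumours, against 623, 384, 557 and 639 in vehicle tumours. Rora, a nuclear receptor of innate lymphoid and T helper 17 cells, had 227, 205, 200.1 and 197 in ENT+PD1 tumours, against 158, 137, 170.5 and 186 in vehicle tumours. Cd38, an ectoenzyme that uses NAD, had 151, 158, 160.3 and 172 in ENT+PD1 tumours, against 126, 118, 130.2 and 138 in vehicle tumours. For these 3, in the housekeeping scaling, tumours 1 and 2 lay beside tumours 5 and 6. The log2 differences of Txnip, Rora and Cd38 were 0.16, 0.11 and 0.08 under median rescaling. In the housekeeping scaling they were at least 0.24, 0.27 and 0.28 when any single tumour was left out. Pou2af1, a coactivator in B cells, had 25.3, 25.3, 24.6 and 15.6 in ENT+PD1 tumours and 13.8, 14.3, 8.40 and 9.13 in vehicle tumours, and exceeded the negative probes in 3 of 4 and 0 of 4. Cd1d1, which presents lipids to NKT cells, averaged 51.1 ± 15.1 in ENT+PD1 against 37.03 ± 6.03 in vehicle, and Pvrl2, the adhesion molecule nectin 2, 142 ± 11.9 in ENT+PD1 against 124 ± 4.19 in vehicle. Under both rescalings the difference of Pvrl2 was negative, at −0.05.

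Of the 6 lower genes, Itgb3, Itgb4 and Ncam1 encode adhesion molecules. Itgb3, the beta 3 integrin, had 172, 202, 217 and 170.2 normalized counts in ENT+PD1 tumours, against 253, 234, 237 and 217 in vehicle tumours (−0.31 ± 0.10, limma unadjusted p = 0.00468, adjusted p = 0.460). Itgb4, the epithelial beta 4 integrin, had 1189, 1229, 1141 and 788 in ENT+PD1 tumours, against 1376, 1344, 1589.6 and 1399 in vehicle tumours. Trp53, the tumour suppressor p53, had 110.3, 152, 162 and 135 in ENT+PD1 tumours, against 169, 179.8, 204 and 169 in vehicle tumours (−0.38 ± 0.12, limma adjusted p = 0.460). The gap was small at Itgb3, where ENT+PD1 tumour 5 and vehicle tumour 5 were nearly level, and at Itgb4 tumour 6 lay far below the other 3. F2rl1, a protease-activated receptor, averaged 106 ± 19.2 in ENT+PD1 against 138 ± 3.35 in vehicle, App, the amyloid precursor protein, 2987 ± 264 in ENT+PD1 against 3375 ± 197 in vehicle, and Ncam1, a neural adhesion molecule also on NK cells in humans, 26.7 ± 1.49 in ENT+PD1 against 43.4 ± 14.6 in vehicle. Il17b, a cytokine of the interleukin 17 family, had 86.2, 108, 79.6 and 61.2 in ENT+PD1 tumours and 122, 133, 98.2 and 114 in vehicle tumours. Cd200, a ligand that restrains myeloid cells, had 715, 689.9, 501 and 399.6 in ENT+PD1 tumours and 812, 693, 773 and 845 in vehicle tumours. These last genes were among the 12 lowest p of the comparison (limma unadjusted p = 0.00882 and 0.0139, adjusted p = 0.460 each) without full separation.

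**Figure D4:**
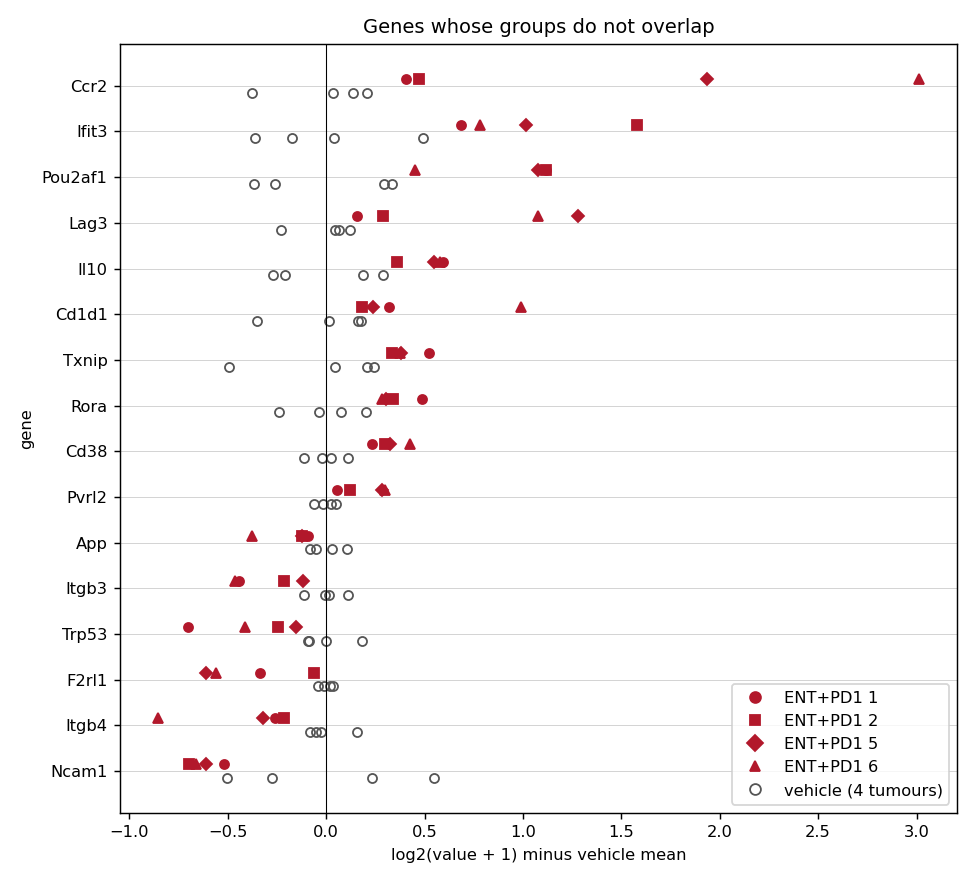
The 16 genes whose groups did not overlap, as log2(normalized count + 1) minus the vehicle mean in each ENT+PD1 tumour (red, upper row of each gene) and each vehicle tumour (grey, lower row). Ccr2 and Lag3 were carried by tumours 5 and 6, while Txnip, Rora and Cd38 had all 4 ENT+PD1 tumours close together.

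**Figure D5:**
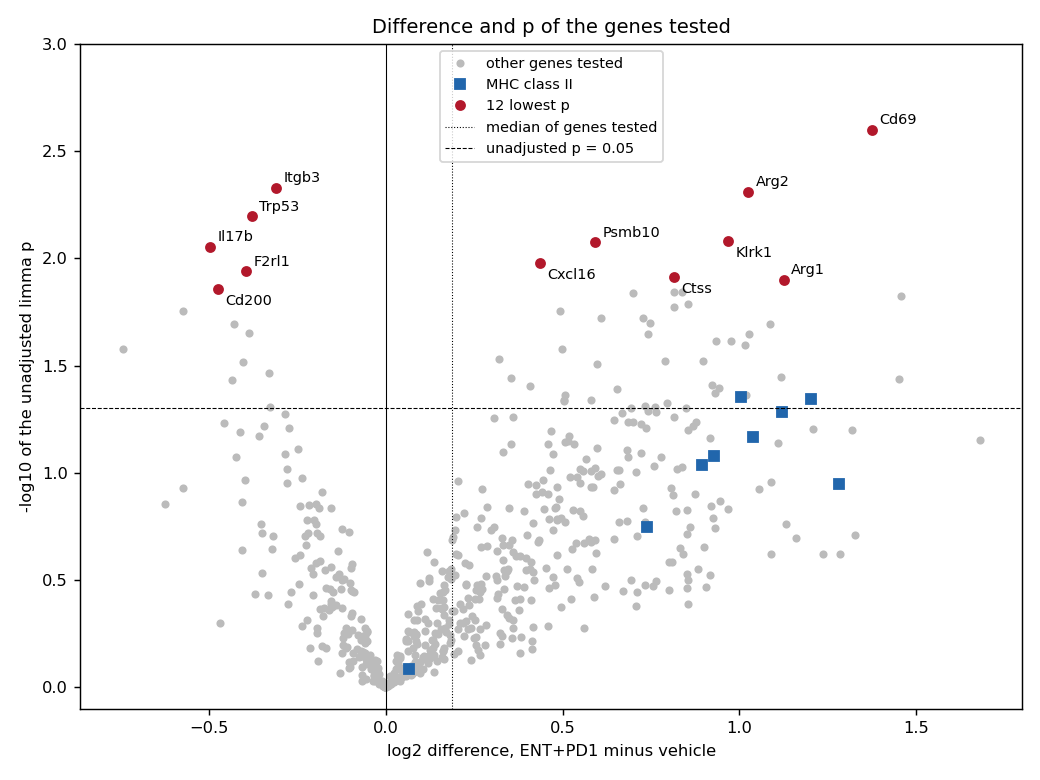
Log2 difference of ENT+PD1 minus vehicle (x axis) and −log10 of the unadjusted limma p (y axis) for the 601 genes tested, with the 12 lowest p in red and the 9 MHC class II genes in blue. Cd69 has the lowest p, none of the genes passed after adjustment, and the dotted line marks the median of all genes at 0.19.

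Against ENT alone, which shares the drug and lacks the antibody, 2 of 601 genes (0.333%) were called in ENT+PD1, and both were higher. Klrk1 had 20.7, 13.9, 37.5 and 32.2 normalized counts in ENT+PD1 tumours, against 5.83, 9.29, 11.1 and 5.11 in ENT tumours 1, 2, 3 and 4, so the groups did not overlap (limma adjusted p = 0.0392). The ENT values were at the level of the negative probes, so the size of the rise is not measured. Arg2 had 60.9, 50.6, 117 and 103 in ENT+PD1 tumours, against 25.3, 26.3, 43.4 and 16.2 in ENT tumours, again without overlap, and a log2 difference of 1.54 ± 0.32 (limma adjusted p = 0.0392). Both calls were lost with log2(normalized count + 20) (lowest adjusted p = 0.0597), under median rescaling (0.302), under quantile normalization (0.123), and with the repeat-titled pair added (0.0676). They were also lost without ENT+PD1 tumour 5 (0.251) or 6 (0.228) and without ENT tumour 1 (0.162), 2 (0.126) or 4 (0.252), while leaving out ENT+PD1 tumour 1 or 2 gave 25 and 7 calls. The median difference of all genes was 0.36, and −0.00467 under median rescaling. ENT against vehicle, which shares its vehicle tumours with the comparison above, gave 0 calls by limma of 601 (0%), with 28 at an unadjusted p under 0.05. MHC class II scores of the ENT tumours were −0.47, −0.40, 0.57 and −0.45, and T cell scores −0.42, −0.30, 0.32 and −0.45, so the highest ENT tumour, tumour 3, was between ENT+PD1 tumours 1 and 2 on one side and 5 and 6 on the other.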

How the data were processed

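RNA of neu-N mouse tumours was measured on an nCounter panel of 750 endogenous genes with 20 housekeeping genes, 8 negative and 6 positive probes. The table and title name the PanCancer Immune panel, and the extraction text names a myeloid panel. The deposited values are a signal normalized by the authors, with an equal housekeeping geometric mean in every sample; the sources used here do not give the steps. Limma is named in the submitters' processing notes. Genes with at least 20 in at least 4 of 24 samples were kept. The deposited signal was turned into log2(value + 1) and fitted with limma 3.58.1 in R 4.3.3 over 22 samples in 6 groups, with Benjamini-Hochberg adjustment over all 601 genes. Summaries and figures used Python 3.11.15, pandas 2.3.3, numpy 2.4.6 and matplotlib 3.10.9. The fit was tested on simulated data. The number of tumours, and for weak genes the negative probes, limit the precision. Totals cover counting only.

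Genes were named by rule: those called, the 12 lowest p, those without overlap, up to 4 of each list by mean over the 24 samples, the 10 widest ENT+PD1 ranges, and a written set; others are said to be chosen after their values were seen. Not every gene that met the rule by list mean is shown. Among those left out are Egr1, Nfkb1 and Nfkb2 of the lymphocyte activation list. Cd47 and Cd276 of the checkpoint list and Irf1 of the interferon gamma list were left out too. The genes shown may therefore differ more between the groups than their lists do. The comparison and lists were chosen with earlier results of these data known. Samples that share a replicate number (1, 2 and 5) had correlations of their deviations of 0.518, 0.0872 and 0.109. Samples with unlike numbers were not compared in this way, so these values do not decide whether the numbers mark pairs. The main fit did not use the numbers as pairs. Alternatives were another pseudocount, filters, 2 rescalings, fewer or more samples, a replicate block and leaving out each sample. Tests on recovered counts were planned and not run.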

Additional observations from a re-analysis of the deposited data

Results flagged for a closer look

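A single tumour lay far from the other 3 of its group in 12 of 254 groups of 4 examined, and chance gives about 1 in 20. In ENT+PD1 tumour 6, App had 2593 normalized counts (others 3095 to 3163), Itgb4 788 (1141 to 1229), Pou2af1 15.6 (24.6 to 25.3) and Ncr1 20.8 (11.4 to 12.6). ENT+PD1 tumour 1 had 1283 for Stat3 (1471 to 1505), and ENT+PD1 tumour 2 had 510.3 for Erbb2 (376 to 393). In vehicle tumour 3, Arg1 had 287 (151 to 166), H2-Ob 35.3 (57.1 to 60.5) and Ms4a1 11.8 (19.4 to 20.8). Vehicle tumour 1 had 30.4 for Cxcl10 (19.3 to 20.6). In vehicle tumour 5 the regulatory T cell score was −0.20 (0.05 to 0.09) and the mast cell score 0.60 (−0.25 to −0.12).

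The change from vehicle differed between ENT+PD1 and ENT at 2 genes by limma, Arg2 with a log2 difference of 1.54 and Klrk1 with a fitted value of 1.58 (adjusted p = 0.0392 each), both higher in ENT+PD1. The Klrk1 value is no measured fold, since all 4 ENT tumours lay below the limit of the negative probes.

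Among genes below the filter, 5 exceeded the negative probes in at least 2 ENT+PD1 tumours and in 0 vehicle tumours, with highest ENT+PD1 values as follows: Pdcd1 69.5 (vehicle 5.71 to 11.1), Ccr4 39.4 (5.88 to 17.1), Tnfrsf9 26.9 (5.54 to 12.6), C8b 19.7 (3.43 to 9.24) and Oasl1 19.7 (2.85 to 7.99). The highest value was in tumour 5 for Tnfrsf9 and in tumour 6 for the other 4. Ccr4, Tnfrsf9, C8b and Oasl1 were chosen after their values were seen.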

How the results depend on the processing

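ENT+PD1 against vehicle gave 0 genes called by limma under all 17 alternatives, with a lowest adjusted p between 0.125 and 0.993. With the replicate block it gave 0 called and 48 at an unadjusted p under 0.05, 47 higher and 1 lower. Only tumours 1, 2 and 5 carry the comparison in that fit, since ENT+PD1 tumour 6 and vehicle tumour 3 share no number. Of 99 genes named, 86 kept the sign of their difference in all 17 alternatives, and 2, Spp1 and Lcn2, had a difference of 0 after quantile normalization, as they hold the same rank in all 8 samples. The other 11 turned, and the cause was not tested. Under median rescaling the log2 differences were −0.0538 for Pvrl2, −0.18 for H2-Ob, −0.0178 for Psmb8, −0.0786 for Pecam1 and −0.18 for Ifitm2. Under quantile normalization they were −0.0515 for Pvrl2, −0.28 for H2-Ob, −0.0350 for Pecam1 and −0.0279 for Ifitm2. With the repeat-titled pair added they were −0.13 for H2-Ob, −0.0369 for Serpinb2, −0.0176 for Pdcd1lg2, −0.00968 for Ccl8, −0.14 for Col3a1, −0.0733 for Pecam1 and −0.0262 for Gzma, and 6 genes had groups that did not overlap. With the replicate block H2-Ob was at −0.00922 and Ifitm2 at −0.000387. Without single tumours, H2-Ob ran from −0.11 to 0.17, below 0 without vehicle 3 or ENT+PD1 5, Cxcl9 from −0.47 to 0.16, above 0 without vehicle 1 or ENT+PD1 1 or 2, and Ifitm2 from −0.0281 to 0.11, below 0 without ENT+PD1 6.

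ENT+PD1 against ENT was refitted by alternatives chosen after seeing the data. It gave 0 genes with log2(value + 20), median rescaling, quantile normalization, the 8 samples alone and the pair added, and 0 to 25 without single tumours. With the replicate block it gave 10, but there only tumours 1 and 2 of each group carry the comparison. No other numbers are shared between these groups, so this is no check on all 8 tumours. ENT against vehicle gave 0 called in all 15 alternatives run.

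Tests on recovered counts were not run. With 4 tumours per group and ENT+PD1 tumours as unlike as these, the intervals of most named genes spanned 0. Genes near the negative probes have no measured fold. The panel holds selected immune genes, so a shift of most of them moves with the choice of scaling.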

Other observations

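The pair of samples whose titles repeat those of ENT+PD1 tumours 1 and 2, run on the second cartridge, had MHC class II scores of −0.36 and 0.12 on the scale used above, within the vehicle range of −0.39 to 0.26. The labels do not say whether these are the same RNA as tumours 1 and 2, and the cartridge and the sample cannot be told apart.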
